A study of Mus musculus with 48 samples.

Results

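The 10 genes followed here belong to the cartilage and bone program and were measured in the thoracic aorta. They are the osteochondrogenic regulators and matrix genes Sox9, Runx2, Acan, Comp, Chad, Hapln1, Mgp, Alpl, Ibsp and Cytl1, with collagens left out, and were taken by symbol, so that 10 of the 18782 genes in the table were members and all 10 were among the 14431 genes tested. RNA was measured by bulk strand-specific RNA-seq in 48 mice, 1 library per mouse. All mice were C57BL/6J of wild-type genotype and entered the study at 3 weeks of age. The groups of each sex were Con (10 MaCon and 10 FeCon mice given normal drinking water), NonAD (4 MaNonAD and 8 FeNonAD) and AAD (7 MaAAD and 9 FeAAD). NonAD and AAD mice drank water with 0.4% β-aminopropionitrile (BAPN) for 28 days. BAPN blocks lysyl oxidase, which joins the fibres of collagen and elastin in the matrix. AAD mice had an aortic dissection or aneurysm at the end of that time, and NonAD mice had no visible lesion. NonAD and AAD are thus outcomes of 1 treatment among mice that lived to the end, and mice that died of rupture are not represented. Library totals ranged from 13548003 to 17281262 counts.

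In growth cartilage, Sox9 is the transcription factor that commits cells to the chondrocyte fate and drives aggrecan and link protein, while Runx2 drives chondrocyte maturation and the osteoblast fate. Aggrecan (Acan) is a large proteoglycan held on hyaluronan by link protein (Hapln1), and COMP and chondroadherin (Chad) bind collagen fibres and cells. Mgp is an inhibitor of mineralization that the normal vessel wall makes in quantity, tissue-nonspecific alkaline phosphatase (Alpl) removes the inhibitor pyrophosphate, and bone sialoprotein (Ibsp) is made by bone-forming cells. Cytl1 encodes a small secreted protein first described in haematopoietic cells and also made by chondrocytes. Smooth muscle cells of diseased vessels are known to take up parts of this program.

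Runx2, Acan and Comp were the members that rose in AAD in both sexes, and the sequence before Runx2 is shown because its window held a searched motif. The RUNX core motif TGTGGT and the SOX motifs ACAAAG and AACAAT, none of which overlaps another, were searched on both strands from 250 bases before to 50 bases after each RefSeq start site on GRCm38.p6. The 250 bases before the start site of Runx2, chr17:44814628-44814877 on the minus strand, are printed 5′ to 3′ with the match to the RUNX motif, which lies on the opposite strand and so reads ACCACA, in capitals.
Runx2: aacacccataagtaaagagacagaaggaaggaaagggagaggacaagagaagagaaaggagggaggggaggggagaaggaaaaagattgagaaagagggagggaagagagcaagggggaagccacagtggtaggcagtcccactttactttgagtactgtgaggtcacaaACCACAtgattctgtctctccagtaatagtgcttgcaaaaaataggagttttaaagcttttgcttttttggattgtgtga
The match began 80 bases before the start site, and 2 further matches began 23 and 31 bases after it. The RUNX motif stood in 16.8% of 32851 windows of this length and a SOX motif in 27.0%. The window of Acan held neither motif. No window was available for Comp, Sox9 or Mgp, so these were not searched.

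Values are CPM, counts scaled to the size of each library with TMM factors. A gene was called in a comparison, and is said to have risen or fallen, where edgeR's quasi-likelihood test gave a Benjamini-Hochberg adjusted p under 0.05 over all 14431 genes and the absolute log2 fold change was at least 1. Errors of log2 fold changes are approximate standard errors (SE).

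The members that moved with BAPN mostly rose, Acan in every BAPN group, and Chad and Cytl1 fell in females. In MaNonAD against MaCon, 1 of 10 members rose (Acan) and none fell, where 0.381% of all genes rose and 0.097% fell. In FeNonAD against FeCon, 2 rose (Runx2 and Acan) and 1 fell (Chad), against 1.67% and 1.08% of all genes. In MaAAD against MaCon, 5 rose (Sox9, Runx2, Acan, Comp and Mgp) and none fell, against 9.18% and 2.18%. In FeAAD against FeCon, 3 rose (Runx2, Acan and Comp) and 2 fell (Chad and Cytl1), against 9.94% and 2.78%. By the p threshold alone the members that passed were 1, 3, 7 and 7 in that order, where 0.624%, 14.5%, 35.0% and 44.4% of all genes did. The median log2 fold change over the 10 members was 0.64 in MaNonAD, 0.138 in FeNonAD, 1.067 in MaAAD and 0.668 in FeAAD, where the medians over all genes were -0.017, 0.004, -0.03 and 0.001. The NonAD and AAD comparisons of a sex share the same Con mice.

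**Figure D1:**
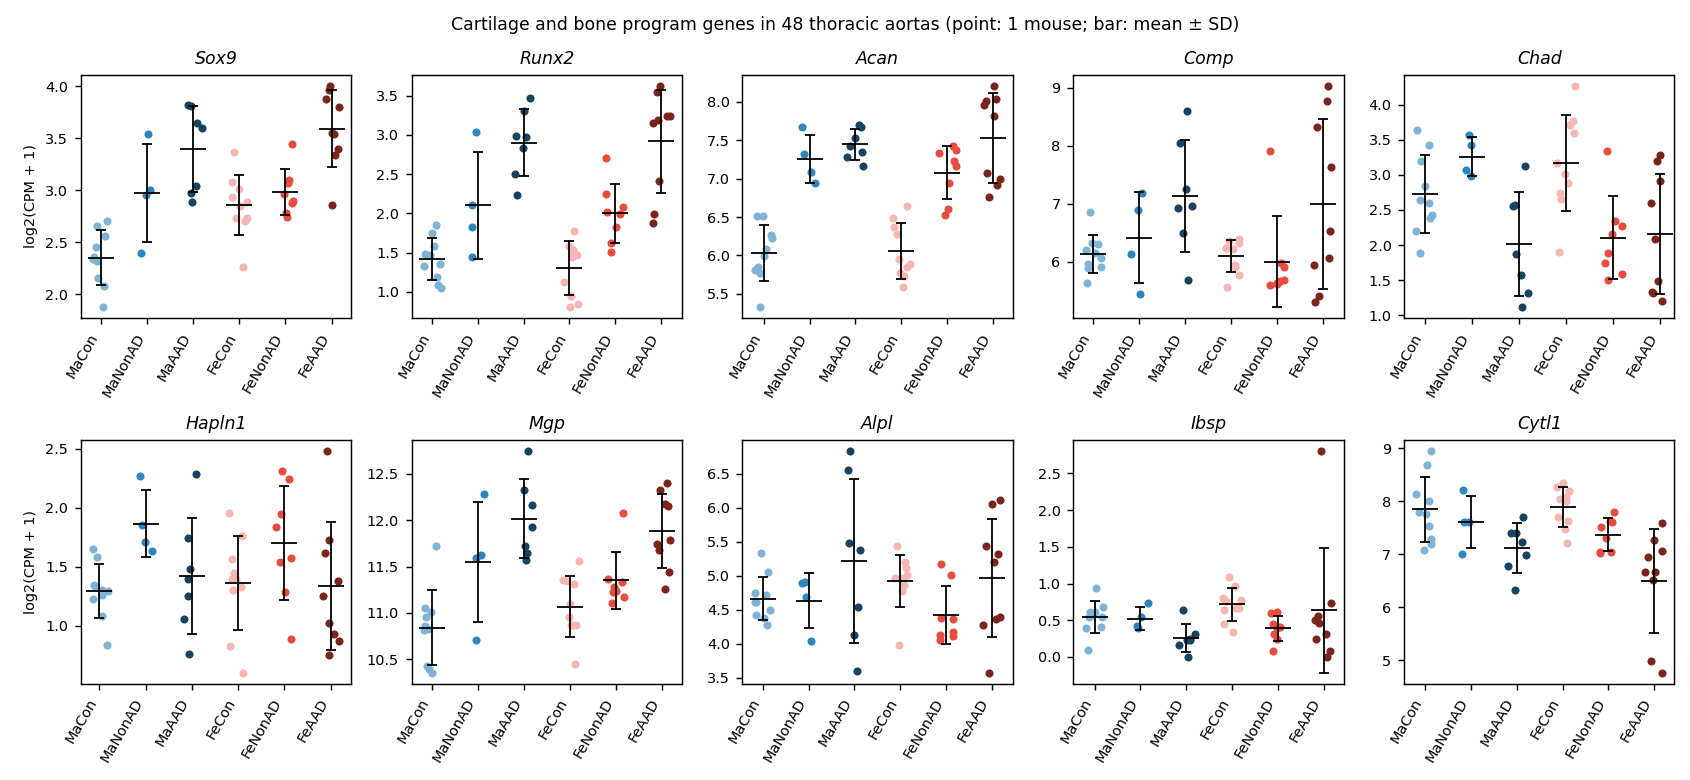
Levels of the 10 members, as log2(CPM + 1), in each of the 48 libraries by group, with 1 point per mouse and a bar at the mean with the SD; each panel has its own vertical scale, which does not start at 0. Acan stands higher in every NonAD and AAD group than in Con, the group means of Runx2 are lowest in Con and highest in AAD, Comp spreads widely in AAD, Cytl1 lies lower in AAD, and 1 FeAAD library lies above all others for Ibsp.

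Runx2, the regulator of chondrocyte maturation and bone formation, rose in AAD of both sexes. In MaCon its level ran from 1.07 to 2.61 CPM with a median of 1.66, and the 7 MaAAD libraries ran from 3.72 to 10.1 with a median of 6.87. In FeCon it ran from 0.744 to 2.42 with a median of 1.74, and the 9 FeAAD libraries from 2.66 to 11.4 with a median of 8.10. In neither sex did AAD and Con overlap, where 8.91% of all genes did not overlap in males and 4.89% in females. Fitted in edgeR, this was a log2 fold change of 1.98 ± 0.28 in MaAAD (adjusted p = 3.75e-07, edgeR) and 2.23 ± 0.27 in FeAAD (adjusted p = 1.02e-08, edgeR). As this is bulk tissue, more cells of a type and more RNA per cell cannot be told apart, here or in the results that follow.

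Without a visible lesion, Runx2 rose in females and was not called in males. The 4 MaNonAD libraries held 7.19, 1.72, 3.29 and 2.54 CPM, 2 of which lay above every MaCon library. The 8 FeNonAD libraries ran from 1.83 to 5.54 CPM with a median of 3.02, and 6 of them lay above every FeCon library. Runx2 differed from Con by a log2 fold change of 1.11 ± 0.33 in MaNonAD (adjusted p = 0.116, edgeR) and 1.02 ± 0.28 in FeNonAD (adjusted p = 0.0108, edgeR). The sex difference in this response was 0.09 ± 0.44 (p = 0.841, adjusted p = 0.971, edgeR). The call in females and not in males is thus not shown to be a difference between them. Without MaNonAD2, the lowest of its group, the male value was 1.37 and passed (adjusted p = 0.0441, edgeR), while without MaNonAD1, the highest, it was 0.56 (adjusted p = 0.843, edgeR). Without FeNonAD8, the highest of its group, the female value was 0.85, under the fold threshold (adjusted p = 0.04, edgeR). From NonAD to AAD, 2 members (Runx2 and Comp) rose in females and none fell, where 6.79% of all genes rose and 0.249% fell, and 5 passed the p threshold alone, where 18.2% did. Runx2 rose there with a log2 fold change of 1.21 ± 0.28 (adjusted p = 0.00161, edgeR). In males no member was called at that step, where 0.353% of all genes were, and DESeq2 called none either; 3 members, Runx2, Chad and Alpl, had an unadjusted p under 0.05, as did 18.7% of all genes. The male value for Runx2 at that step was 0.87 ± 0.36 (p = 0.0203, adjusted p = 0.171, edgeR), and without MaNonAD1, the library of its group with the most Runx2, it was 1.42 and passed (adjusted p = 0.0362, edgeR). The sex difference in that step was -0.34 ± 0.44 for Runx2 (p = 0.451, edgeR) and was not called.

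Runx2 lies on chromosome 17 from 44495987 to 44814797 on the minus strand of GRCm38 (GENCODE M21), which places the printed RefSeq start site inside the gene. It overlaps Supt3 and the antisense genes Runx2os1, Runx2os2 and Runx2os3 on the opposite strand. The libraries were strand-specific, but the strand setting of the counting is not given in the sources used here, so its reads may be partly theirs.

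Sox9, the regulator of the chondrocyte fate, rose in male AAD. MaCon ran from 2.67 to 5.54 CPM with a median of 4.11, and MaAAD from 6.39 to 13.2 with a median of 11.1, without overlap. That was a log2 fold change of 1.24 ± 0.18 (adjusted p = 4.89e-07, edgeR). FeCon ran from 3.80 to 9.31 CPM with a median of 6.31, and FeAAD from 6.24 to 15.1 with a median of 10.7. Of the 9 FeAAD libraries, 7 lay above every FeCon library. The female log2 fold change was 0.84 ± 0.17, past the p threshold but not the fold threshold (adjusted p = 6.82e-05, edgeR). Sox9 in the controls differed between the sexes at -0.61 ± 0.17 in MaCon against FeCon, that is, lower in males (adjusted p = 0.0115, edgeR), while MaAAD and FeAAD differed by -0.20 ± 0.18 (adjusted p = 1, edgeR). The sex difference in the AAD response itself was 0.41 ± 0.25 (p = 0.106, adjusted p = 0.436, edgeR), so the call in males and not in females is not shown to be a difference between them.

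In NonAD, Sox9 was not called. MaNonAD held 10.7, 4.27, 6.77 and 7.01 CPM, 3 of them above every MaCon library, with a log2 fold change of 0.78 ± 0.21 (adjusted p = 0.0742, edgeR). FeNonAD ran from 5.70 to 9.87 with a median of 6.63, largely within FeCon, with 0.13 ± 0.17 (adjusted p = 0.65, edgeR). Sox9 lies on chromosome 11 from 112782224 to 112787760 on the plus strand of GRCm38, and Runx2 and Sox9 were both low per length, with means in Con of 0.237 to 0.264 CPM per kb of transcript for Runx2 and 1.01 to 1.54 for Sox9.

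Acan, the large proteoglycan of cartilage, rose in all 4 BAPN groups. MaCon ran from 39.1 to 90.6 CPM with a median of 64.8, MaNonAD held 202.5, 159.0, 134.9 and 122.6, and MaAAD ran from 142.4 to 206.2 with a median of 170.6. Every male BAPN library lay above every MaCon library, where 1.26% of all genes did not overlap between MaNonAD and MaCon. FeCon ran from 47.2 to 99.1 CPM with a median of 59.7, FeNonAD from 91.4 to 170.2 with a median of 145.6, and FeAAD from 107.2 to 295.7 with a median of 225.1. FeAAD did not overlap FeCon, whereas FeNonAD reached just into the range of FeCon.

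Against Con, Acan had a log2 fold change of 1.22 ± 0.21 in MaNonAD (adjusted p = 0.000988, edgeR) and 1.02 ± 0.18 in FeNonAD (adjusted p = 0.000149, edgeR). It was 1.40 ± 0.19 in MaAAD (adjusted p = 1.17e-07, edgeR) and 1.55 ± 0.18 in FeAAD (adjusted p = 2.83e-09, edgeR). The FeNonAD value sits at the fold threshold and came to 0.99 without FeCon10 (adjusted p = 0.000407, edgeR). From NonAD to AAD it was 0.18 ± 0.24 in males (adjusted p = 0.735, edgeR) and 0.53 ± 0.19 in females (adjusted p = 0.041, edgeR), neither of which passed the fold threshold. Acan was thus the 1 member called in both NonAD groups. It lies on chromosome 7 from 79053483 to 79115099 on the plus strand of GRCm38.

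Comp, cartilage oligomeric matrix protein, rose in AAD with a wide spread between mice. MaCon ran from 48.9 to 114.6 CPM with a median of 68.1, and MaAAD from 50.4 to 387.8 with a median of 123.2. FeCon ran from 46.6 to 83.3 with a median of 74.1. The FeAAD libraries, from the highest, held 524.8, 435.9, 318.1, 199.0, 91.5, 65.7, 60.6, 41.5 and 38.6 CPM. In all, 5 of 7 MaAAD and 5 of 9 FeAAD libraries lay above every Con library of their sex, and 2 FeAAD libraries lay below every FeCon library.

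Against Con, Comp had a log2 fold change of 1.26 ± 0.41 in MaAAD (adjusted p = 0.0132, edgeR) and 1.52 ± 0.39 in FeAAD (adjusted p = 0.00132, edgeR). The male call rested on MaAAD1, without which the value was 0.93 (adjusted p = 0.0705, edgeR). MaAAD1 also held the most brown fat marker RNA of any library, 6656 CPM summed over 8 genes, and the part of that tissue was not tested. In NonAD the log2 fold change of Comp was 0.41 ± 0.49 in males and 0.14 ± 0.40 in females (adjusted p = 0.817 and 0.846, edgeR). The female value turned to -0.39 without FeNonAD8 (adjusted p = 0.541, edgeR). MaNonAD held 145.5, 69.3, 118.1 and 42.9 CPM. FeNonAD had a median of 50.4 CPM with a lowest of 47.6, and its highest, FeNonAD8, stood at 239.5. From FeNonAD to FeAAD Comp rose by 1.38 ± 0.42 on the log2 scale (adjusted p = 0.0163, edgeR), a call that was lost without FeAAD6 (1.05, adjusted p = 0.0676, edgeR) and in a fit of those groups alone (adjusted p = 0.12, edgeR). Comp lies on chromosome 8 from 70373558 to 70382066 on the plus strand of GRCm38.

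Chad, which binds collagen and integrins in cartilage, fell in both female BAPN groups. FeCon ran from 2.75 to 18.3 CPM with a median of 7.53, FeNonAD from 1.83 to 9.17 with a median of 3.08, and FeAAD from 1.3 to 8.75 with a median of 3.25. In each BAPN group 4 libraries lay below every FeCon library. The log2 fold change was -1.27 ± 0.39 in FeNonAD (adjusted p = 0.0211, edgeR) and -1.08 ± 0.37 in FeAAD (adjusted p = 0.0151, edgeR). Both calls rested on FeCon10, the highest library, which also held the most heart muscle marker RNA of any library, 651.3 CPM summed over 8 genes. Without it the values were -1.10 (adjusted p = 0.0527, edgeR) and -0.90 (adjusted p = 0.0447, edgeR). The FeAAD value also came under the fold threshold without FeAAD5 (-0.96) or FeAAD9 (-0.98). Over the groups, 4 of 8 heart muscle markers fell in FeAAD against FeCon and none in the other 3 comparisons with Con, and the part of that tissue in the result was not tested.

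In males Chad was not called. MaCon ran from 2.68 to 11.5 CPM with a median of 5.15, MaNonAD held 9.70, 10.9, 7.43 and 6.88, and MaAAD ran from 1.17 to 7.69 with a median of 2.67. The log2 fold change was 0.52 ± 0.45 in MaNonAD (adjusted p = 0.715, edgeR) and -0.78 ± 0.40 in MaAAD (adjusted p = 0.13, edgeR). Males and females without lesions thus had opposite signs, and the sex difference in the NonAD response was 1.80 ± 0.59 (p = 0.00371), which did not pass over all genes (adjusted p = 0.157, edgeR). Chad lies on chromosome 11 from 94565047 to 94569127 on the plus strand of GRCm38, opposite Acsf2, and the limit on strand given for Runx2 holds for it too.

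Hapln1, the link protein that fixes aggrecan to hyaluronan, was called in no comparison. Its group medians ran from 1.38 CPM in FeAAD to 2.44 in MaNonAD, with libraries between 0.521 and 4.59. MaNonAD held 3.83, 2.61, 2.10 and 2.27 CPM, 3 of them above every MaCon library. For Hapln1 the log2 fold change was 0.87 ± 0.38 in MaNonAD (p = 0.0269, adjusted p = 0.323, edgeR), 0.54 ± 0.31 in FeNonAD, 0.30 ± 0.33 in MaAAD and 0.05 ± 0.31 in FeAAD. Its response was not tested against that of Acan. Hapln1 lies on chromosome 13 from 89539796 to 89611652 on the plus strand of GRCm38.

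Cytl1, the secreted protein made by chondrocytes, fell in female AAD. FeCon ran from 146.7 to 325.0 CPM with a median of 259.3, FeNonAD from 128.8 to 220.5 with a median of 169.8, and FeAAD from 26.2 to 191.2 with a median of 100.4. Of 9 FeAAD libraries, 7 lay below every FeCon library. For Cytl1 the log2 fold change was -1.21 ± 0.26 in FeAAD (adjusted p = 0.000164, edgeR) and -0.54 ± 0.26 in FeNonAD (adjusted p = 0.166, edgeR). In males, MaCon ran from 134.7 to 494.0 CPM with a median of 218.8, MaNonAD held 128.1, 295.8, 194.0 and 195.2, and MaAAD ran from 78.7 to 208.6 with a median of 149.8. The male value was -0.80 ± 0.28 in MaAAD, past the p threshold alone (adjusted p = 0.0218, edgeR), and the sex difference in the AAD response was 0.42 ± 0.37 (adjusted p = 0.631, edgeR).

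The lowest Cytl1 levels, 26.2 CPM in FeAAD5 and 30.5 in FeAAD9, were in the 2 libraries with the least endothelial and fibroblast marker RNA of all. Their endothelial sums over 8 genes were 389.9 and 312.7 CPM, where FeCon ran from 591.6 to 1139. The log2 fold change of Cytl1 in FeAAD was -1.08 without FeAAD5 and -1.09 without FeAAD9. None of the 8 endothelial markers was called in a comparison with Con, and the group median of their sum was 734.0 CPM in FeAAD and 840.9 in FeCon. That list was added after the values were seen. Cytl1 lies on chromosome 5 from 37735519 to 37739820 on the plus strand of GRCm38.

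**Figure D2:**
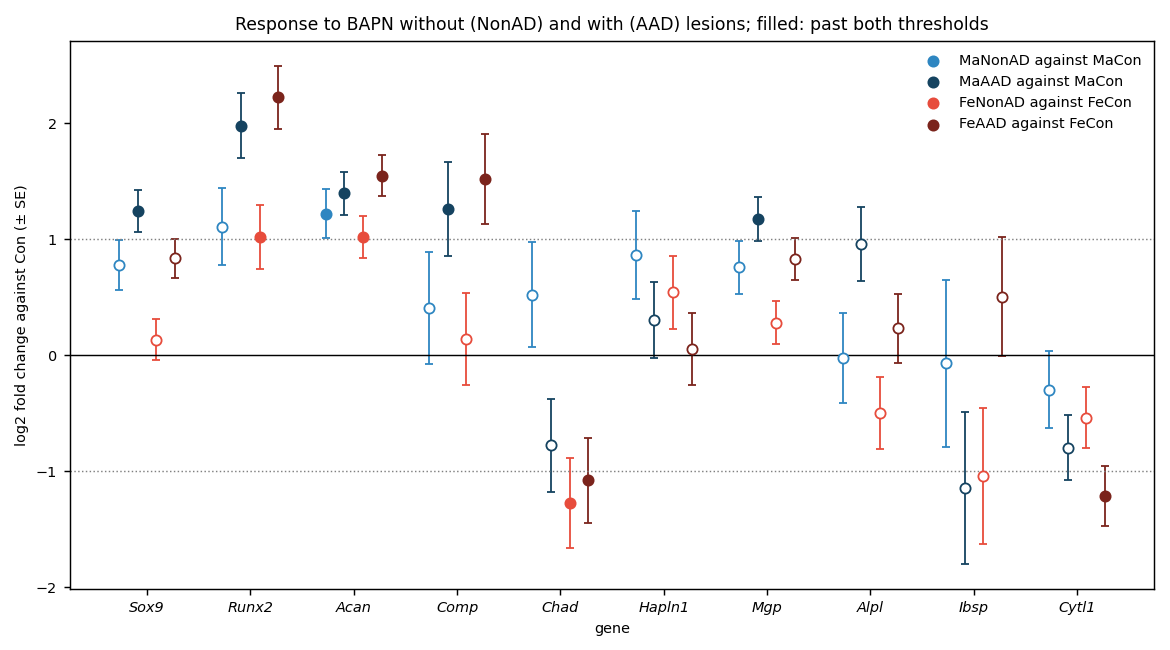
Log2 fold change against Con of the same sex, with its SE, of the 10 members in the NonAD and AAD groups of each sex; filled points passed both the p and the fold threshold, and dotted lines mark the fold threshold. Runx2 reached 1.98 in MaAAD and 2.23 in FeAAD, Acan passed in all 4 comparisons, and Chad and Cytl1 passed below 0 in females.

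Mgp, the inhibitor of mineralization, was the most abundant member by far and rose in male AAD. MaCon ran from 1311 to 3381 CPM with a median of 1836, MaNonAD held 4990, 3144, 3085 and 1666, and MaAAD ran from 3039 to 6867 with a median of 3898. FeCon ran from 1399 to 3019 with a median of 2090, FeNonAD from 2209 to 4320 with a median of 2446, and FeAAD from 2446 to 5415 with a median of 3527. In AAD, 4 of 7 MaAAD and 7 of 9 FeAAD libraries lay above every Con library of their sex.

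Against Con, Mgp had a log2 fold change of 1.17 ± 0.19 in MaAAD (adjusted p = 4.51e-06, edgeR) and 0.83 ± 0.18 in FeAAD, past the p threshold alone (adjusted p = 0.000234, edgeR). The sex difference in the AAD response was 0.34 ± 0.27 (adjusted p = 0.572, edgeR). In NonAD it was 0.76 ± 0.23 in males (adjusted p = 0.119, edgeR) and 0.28 ± 0.19 in females (adjusted p = 0.331, edgeR). Per kb of transcript Mgp averaged 2665 CPM in MaCon and 3073 in FeCon, against 256.8 and 250.4 for Cytl1, 29.3 and 28.4 for Comp, 9.90 and 12.0 for Alpl, and 9.03 and 9.18 for Acan. In both control groups the order of levels per kb thus began Mgp, Cytl1 and Comp, and Alpl and Acan overlapped in range. Below them in mean came Chad (3.62 and 5.31), whose range overlapped that of Acan in both sexes and those of Alpl and Sox9 in females, then Sox9 (1.01 and 1.54), and Hapln1, Runx2 and Ibsp, all between 0.227 and 0.319 and overlapping. In AAD the mean of Comp per kb was 70.3 in MaAAD and 81.7 in FeAAD, and that of Cytl1 stood at 147.7 and 107.9. Mgp lies on chromosome 6 from 136872435 to 136875823 on the minus strand of GRCm38.

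Alpl, the phosphatase that removes pyrophosphate, was called in no comparison, and spread widely in AAD. MaCon ran from 18.5 to 39.3 CPM with a median of 23.5, and MaAAD from 11.2 to 112.9 with a median of 40.4. FeCon ran from 14.8 to 42.4 with a median of 30.3, and FeAAD from 11.0 to 68.4 with a median of 35.9. AAD libraries thus lay both above and below Con. MaNonAD held 15.5, 28.6, 29.1 and 24.9 CPM, and FeNonAD had a median of 18.4. The log2 fold change was 0.96 ± 0.32 in MaAAD, past the p threshold alone (adjusted p = 0.0153, edgeR), and 0.23 ± 0.30 in FeAAD (adjusted p = 0.56, edgeR). The highest levels, in MaAAD7 and FeAAD5, were in the libraries of their groups with the most macrophage marker RNA, 3428 and 5309 CPM summed over 8 genes. The next highest, MaAAD2 (92.9 CPM of Alpl) and FeAAD3 (65.5), were the libraries of their groups with the least, 752.2 and 562.5 CPM. Without MaAAD7 the male value was 0.60 (adjusted p = 0.146, edgeR), and without MaAAD1, the lowest, it was 1.15 and passed (adjusted p = 0.00247, edgeR). Alpl lies on chromosome 4 from 137741733 to 137796384 on the minus strand of GRCm38.

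Ibsp, bone sialoprotein, was near the limit of detection in all but 1 library. Outside FeAAD6 its highest count was 16, and FeAAD6 held 100 counts, or 6.00 CPM. Male medians were 0.468 CPM for MaCon, 0.397 for MaNonAD and 0.175 for MaAAD, and female medians 0.643 for FeCon, 0.321 for FeNonAD and 0.374 for FeAAD. The MaNonAD libraries held 11, 5, 7 and 5 counts. The log2 fold change in FeAAD was 0.51 ± 0.51 (adjusted p = 0.45, edgeR) with FeAAD6 and -1.10 without it (adjusted p = 0.0271, edgeR), so that 1 library set its sign. From FeNonAD to FeAAD it was 1.55 ± 0.59 and did not pass (adjusted p = 0.058, edgeR), but it passed in DESeq2 (1.57, adjusted p = 0.0458) and without FeNonAD8, FeAAD5 or FeAAD9 (1.67, 1.70 and 1.71, adjusted p = 0.0494, 0.0448 and 0.0299, edgeR). Without FeAAD6 that step was -0.06 (adjusted p = 0.945, edgeR), so that 1 library carried it. In MaAAD it was -1.14 ± 0.66 (adjusted p = 0.175, edgeR) and in FeNonAD -1.04 ± 0.59 (adjusted p = 0.236, edgeR). Ibsp lies on chromosome 5 from 104299171 to 104311469 on the plus strand of GRCm38.

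FeAAD6 was also high in some other cartilage and bone genes. It held the most Comp of all libraries (8754 counts, against at most 6985 elsewhere) and the most Chad of FeAAD. Sp7, the regulator that acts after Runx2 in osteoblasts, stood at 52 counts where no other library passed 24. Of the cartilage collagens, which the member list leaves out, Col2a1 stood at 3445 counts against at most 1892 elsewhere and Col10a1, the collagen of hypertrophic cartilage, at 4284 against 1518. It was the highest FeAAD library for 5 of 8 cartilage collagens, 5 of 20 regulators, 3 of 24 cartilage matrix genes, 2 of 17 bone matrix genes, 1 of 18 inhibitors and none of 8 macrophage markers, where it was the highest for 9.33% of all genes. For the members it was the highest for 3 of 10, as was FeAAD1. Osteocalcin, Bglap, which mature osteoblasts make, held 6 counts there against at most 3 elsewhere, all near the limit of detection. These genes of FeAAD6 other than members were chosen after their values were seen.

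Single libraries also stood high in NonAD. MaNonAD1 was the highest of its 4 for Sox9, Runx2, Acan, Comp, Hapln1, Mgp and Ibsp, and the lowest for Alpl and Cytl1. Over all genes it was the highest for 26.2% and the lowest for 25.2%. FeNonAD8 was the highest of its 8 for Sox9, Runx2, Comp, Chad and Mgp, and the lowest for Cytl1, and over all genes it was the highest for 19.4% and the lowest for 17.6%. Both had the most macrophage marker RNA of their groups, 743.2 and 816.4 CPM, where MaCon ran from 196.7 to 516.5 and FeCon from 237.3 to 561.9. Both also had the least smooth muscle marker RNA of their groups, 21000 and 25820 CPM summed over 8 genes, and the part of these cell types was not tested. Without MaNonAD1 the log2 fold changes of Sox9 and Mgp in MaNonAD against MaCon were 0.52 and 0.47 (adjusted p = 0.721 and 0.796, edgeR). Sox9 without MaNonAD2 (0.99, adjusted p = 0.0161, edgeR) and Mgp without MaNonAD4 (0.97, adjusted p = 0.0299, edgeR) passed the p threshold alone.

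Deviations from the group means, taken on log2(CPM + 1) over the 48 libraries, showed which members varied together between mice of 1 group. Of 45 pairs, 6 passed a permutation test of Pearson's r with 100000 shuffles within groups after Benjamini-Hochberg adjustment. By Spearman's rho 8 passed, 5 of them the same. Comp and Mgp were closest, with Pearson's r = 0.701 and Spearman's rho = 0.714 (permutation p = 1e-05 for both, the smallest these shuffles can give, adjusted p = 0.00045), and r = 0.687 without the 2 libraries farthest out in Comp. Runx2 went with Comp (r = 0.517, permutation p = 0.00428, adjusted p = 0.0321; rho = 0.48, permutation p = 0.00328) and went against Cytl1 (r = -0.507, permutation p = 0.0026, adjusted p = 0.025; rho = -0.48, permutation p = 0.00155). Without the 2 libraries farthest out in Runx2, FeAAD3 and FeAAD2, these were 0.432 and -0.428. FeAAD5 and FeAAD9, the lowest in Cytl1, stayed in, and Runx2 with Cytl1 was not tested without them.

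Acan went with Mgp (r = 0.444, permutation p = 0.00197, adjusted p = 0.025; rho = 0.432, permutation p = 0.00475), with r = 0.475 without its 2 farthest libraries. Ibsp went with Comp (r = 0.494, permutation p = 0.00278, adjusted p = 0.025; rho = 0.457, permutation p = 0.00169) and with Chad (r = 0.43, permutation p = 0.00131, adjusted p = 0.025; rho = 0.365, permutation p = 0.01392, adjusted p = 0.0626), and these were 0.319 and 0.36 without FeAAD6 and FeNonAD8. Sox9 passed with no other member, with r = 0.372 for Runx2 (permutation p = 0.02702, adjusted p = 0.0935; rho = 0.345, permutation p = 0.02982) and 0.145 for Acan (permutation p = 0.36254, adjusted p = 0.526; rho = 0.124, permutation p = 0.41838). Over the 7 MaAAD and 9 FeAAD libraries alone 2 pairs passed, Comp with Mgp and Chad with Ibsp. The other pairs kept their sign there, with r = 0.56 for Runx2 and Comp, -0.653 for Runx2 and Cytl1, 0.443 for Acan and Mgp and 0.525 for Comp and Ibsp. Acan with Mgp did not pass without TMM factors (r = 0.384, permutation test, adjusted p = 0.0561), nor Comp with Ibsp on log2(CPM + 0.1) (r = 0.478, permutation test, adjusted p = 0.066).

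**Figure D3:**
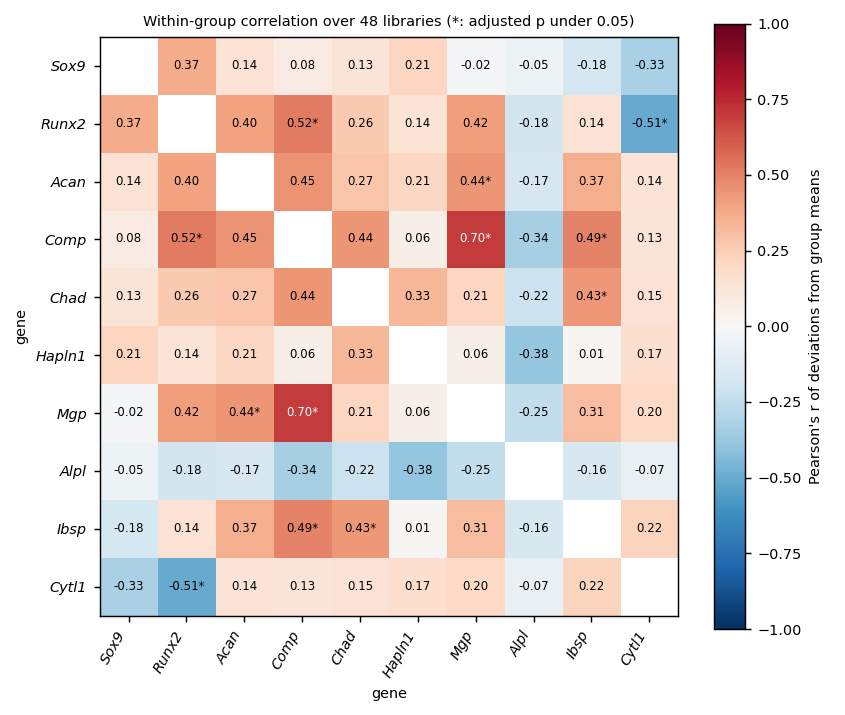
Pearson's r between each pair of the 10 members, from deviations of log2(CPM + 1) from the group means over 48 libraries, with colour from -1 to 1 and a star where the adjusted p was under 0.05. Comp with Mgp (0.70) stands highest, and Runx2 with Cytl1 (-0.51) is the 1 starred pair below 0.

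**Figure D4:**
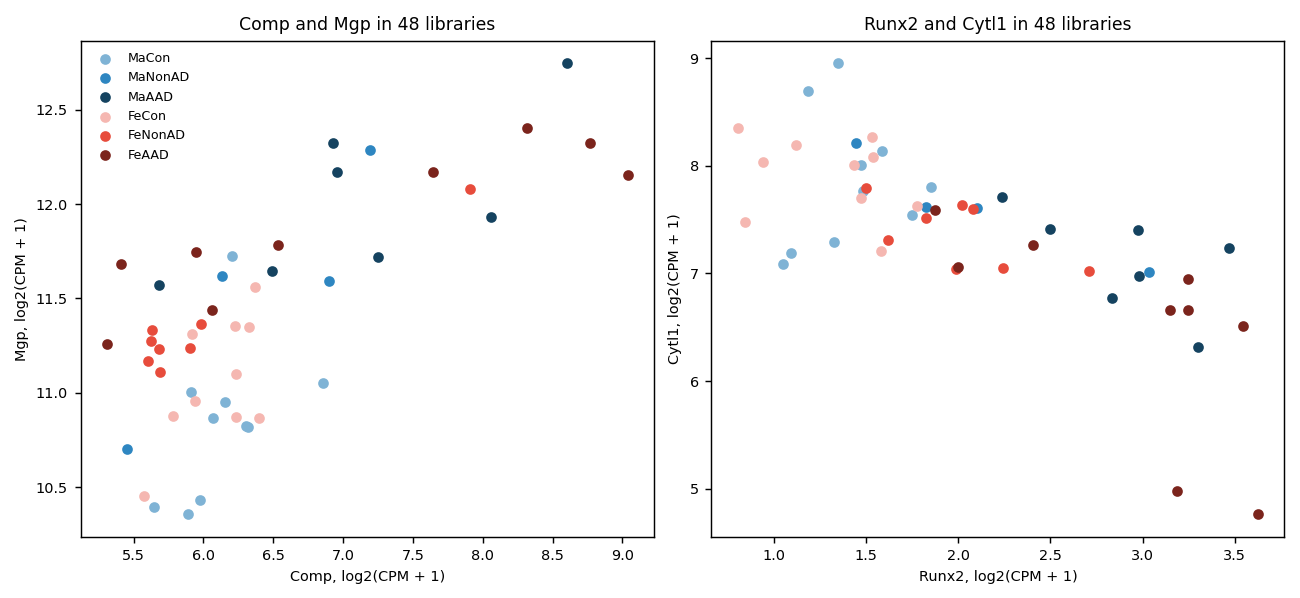
Levels of Mgp against Comp and of Cytl1 against Runx2, as log2(CPM + 1), in the 48 libraries, with 1 point per mouse coloured by group; the axes do not start at 0. Libraries high in Comp were high in Mgp, and FeAAD5 and FeAAD9, at 26.2 and 30.5 CPM of Cytl1, lie below all others.

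The genes whose within-group pattern was most like that of a member, among 13701 genes averaging at least 10 counts, are given as a description over the 48 libraries. For Runx2 they were Tnfrsf11b (r = 0.713), which encodes osteoprotegerin, Col8a1 (0.712) and Trim30d (0.71). For Sox9 they were Vcam1 (0.687), a leukocyte adhesion molecule, Itpripl2 (0.672) and Zfp462 (0.632). For Acan they were Pdgfc (0.704), a growth factor, Myo1d (0.695) and Ltbp2 (0.685), a matrix protein of elastic fibres. For Comp they were C1qtnf5 (0.936), the short-chain collagen Col8a2 (0.917) and Gal3st1 (0.882). For Cytl1 they were Klk10 (0.87), Pecam1 (0.865), an endothelial adhesion molecule, and Sox13 (0.855). For Ibsp they included Sp7 (0.647) and Ccl21d (0.638), which came to 0.237 and 0.275 without the 2 farthest libraries, FeAAD6 and FeAAD9. For the other members named here, the same step left values of at least 0.597.

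No member was called between the sexes, though Sox9 passed the p threshold alone in the controls, where 14.3% of all genes did. In MaCon against FeCon, MaNonAD against FeNonAD and MaAAD against FeAAD none of 10 members was called, where 1.51%, 0.0485% and 0.0693% of all genes were, and DESeq2 called none either. At an unadjusted p under 0.05, those comparisons held 1 member each, Sox9, Chad and Ibsp respectively, where 29.1%, 6.47% and 2.22% of all genes were under it. Tests of whether males and females differed in their response (NonAD against Con, AAD against Con, AAD against NonAD) also called no member, against 0.298%, 0.52% and 0.0% of all genes. Unadjusted, Sox9 (0.64 ± 0.28, p = 0.0246, adjusted p = 0.312, edgeR) and Chad were under 0.05 in the first of these, no member was in the second, and Chad and Ibsp were in the third, where 12.1%, 15.4% and 1.04% of all genes were. The Ibsp values rested on FeAAD6, without which MaAAD against FeAAD went from -2.14 to -0.53 and the third test from -2.62 to -1.02.

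Other genes of the program were counted from lists, each without the members, against the 9.18% of all genes that rose and 2.18% that fell in MaAAD and the 9.94% and 2.78% in FeAAD. Of 20 tested chondrogenic and osteogenic regulators, 2 rose in AAD of both sexes, a share near that of all genes. They were Runx1 and Runx3, which are also regulators of blood cells. Runx1 went from a median of 4.49 CPM in MaCon to 28.3 in MaAAD (log2 fold change 2.93 ± 0.36, adjusted p = 2.03e-08, edgeR) and from 5.27 in FeCon to 24.7 in FeAAD. Runx3 went from 0.751 to 5.15 in males and from 0.351 to 3.24 in females. Msx2 fell in both sexes, at -1.27 ± 0.35 in MaAAD and -1.10 ± 0.32 in FeAAD (adjusted p = 0.00358 and 0.00482, edgeR), and 1 further regulator fell in females. The median over the list was -0.175 in MaAAD and 0.054 in FeAAD. All 8 macrophage markers rose in AAD of both sexes, and their part in these levels was not tested.

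Of 24 tested cartilage matrix and chondrocyte genes, 4 rose and 1 fell in MaAAD, and 5 rose and 1 fell in FeAAD. Prg4, lubricin of joint surfaces, had a median of 9.13 CPM in MaCon and 167.3 in MaAAD (log2 fold change 4.89 ± 0.59, adjusted p = 2.22e-08, edgeR). In females it had 23.9 in FeCon and 143.1 in FeAAD (log2 fold change 2.63). Prg4 was called lower in MaCon than in FeCon, and its sex difference in the AAD response was not called. Frzb, a secreted Wnt antagonist, had medians of 45.8 and 151.0 CPM in males and 72.8 and 205.2 in females. Chst11, which sulfates chondroitin chains, had 17.5 and 36.8 in males and 14.0 and 38.6 in females, and Chil1, also made by macrophages, rose in both sexes but reached at most 6.15 CPM. Ihh, the hedgehog ligand of growth plates, fell, from 12.5 to 3.38 CPM in males and from 11.9 to 4.06 in females (log2 fold change -1.73 ± 0.28 and -1.42 ± 0.26, adjusted p = 3.99e-06 and 1.48e-05, edgeR). The list's median was 0.158 in MaAAD and 0.137 in FeAAD.

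Of 8 cartilage collagens, 4 rose in MaAAD and 5 in FeAAD, and none fell. Col2a1, the main collagen of cartilage, had male medians of 0.408 CPM for MaCon, 4.41 for MaNonAD and 5.83 for MaAAD, and female medians of 0.621 for FeCon, 1.44 for FeNonAD and 12.5 for FeAAD. Its log2 fold change in AAD was 4.42 ± 0.91 in males and 5.61 ± 0.90 in females (adjusted p = 0.000129 and 1.94e-06, edgeR). Col11a1 and Col10a1 rose likewise, with medians of 10.1 and 2.11 CPM in MaAAD and 9.59 and 4.12 in FeAAD, where Con libraries held at most 0.787 and 0.830 CPM. In a fit of the compared groups alone, 2 collagens of the list were called in each sex, and the others called here were not tested, since they did not pass its filter on low counts. The male call of Col9a2 (1.10) was lost in DESeq2 (adjusted p = 0.0683) and with no filter on low counts (adjusted p = 0.0544, edgeR). Without MaAAD1 its value was 0.54 (adjusted p = 0.362, edgeR). Col9a2 held at most 25 counts in a library and was named after its values were seen.

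Of 17 tested bone matrix and mineralization genes, 3 rose and 2 fell in MaAAD, and 3 rose and 1 fell in FeAAD. Spp1, osteopontin, which macrophages also make, had medians of 1.46 CPM in MaCon and 379.8 in MaAAD, and 2.75 in FeCon and 253.1 in FeAAD (log2 fold change 8.97 ± 0.93 and 8.27 ± 0.89, adjusted p = 1.39e-09 and 9.52e-10, edgeR). Mmp13, a collagenase of hypertrophic cartilage and bone, had medians of 0.618 and 1.67 CPM in males and 0.218 and 2.08 in females. Tnfsf11, which encodes RANKL, the factor that drives osteoclast formation, also rose in both sexes from at most 3 counts in a Con library, with medians of 0.434 CPM in MaAAD and 0.300 in FeAAD. With the compared groups fitted alone, 2 bone matrix genes were called higher in MaAAD and 1 in FeAAD, since the filter on low counts then left out Tnfsf11 and, in females, Mmp13. Genes made by bone cells stood at very different levels. Sost, the Wnt antagonist of osteocytes, held at least 2167 counts in every library and had medians of 1914 CPM in MaCon, 732.2 in MaAAD, 1171 in FeCon and 784.6 in FeAAD, and Phex and Phospho1 held up to 287 and 1762 counts, whereas Bglap held at most 6 counts in a library and Sp7 at most 24 outside FeAAD6. Sost, Phex and Phospho1 were named after their values were seen.

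Of 18 tested inhibitors of mineralization, 1 rose in both sexes, Tnfrsf11b, which blocks the osteoclast factor RANKL. Its medians were 17.8 CPM in MaCon and 109.1 in MaAAD, and 27.9 in FeCon and 139.2 in FeAAD (log2 fold change 2.63 ± 0.31 and 2.54 ± 0.30, adjusted p = 1.45e-08 and 4.64e-09, edgeR). In each sex 2 inhibitors fell, and Nog, the BMP antagonist noggin, was 1 of them in both (log2 fold change -1.44 ± 0.36 and -1.96 ± 0.32, adjusted p = 0.00144 and 3.22e-06, edgeR), and it also fell in FeNonAD (-1.74 ± 0.33, adjusted p = 0.000364, edgeR). That filter left out Nog too in each of these comparisons. The other inhibitor that fell in MaAAD was Sost, which is on both lists and is 1 of the 2 bone matrix genes that fell there. Nog and Tnfsf11 average under 10 counts and were named after their values were seen. The list's median was 0.176 in MaAAD and 0.287 in FeAAD.

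Defining markers of the cell types the tissue could hold stood as follows. Of 8 chondrocyte markers, Matn1, Ucma and Snorc held at most 2, 11 and 17 counts in any library, and the sum of the list ran from 8.08 to 16.5 CPM in Con, from 7.69 to 64.9 in MaAAD and from 5.68 to 225.1 in FeAAD, with FeAAD6 the highest. Of 5 tested chondrocyte markers, 1 rose in MaAAD and 2 in FeAAD, all of them collagens. Of 8 smooth muscle markers 5 fell in AAD of each sex, and the median of their sum was 41800 CPM in MaCon, 20930 in MaAAD, 43870 in FeCon and 21820 in FeAAD. Of 7 tested osteoclast markers 4 rose in each sex. In AAD against Con, fibroblast markers had 1 rise in each sex and 1 fall in females, skeletal muscle markers 1 fall in females, airway markers 2 falls in males and 1 in females, and thymus and brown fat markers none. The part of these cell types in the members' levels was not tested.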

How the data were processed

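The authors deposited expected counts per gene, listed by symbol, 1 column per mouse and not scaled to library size. Their processing notes name RSEM 1.3.1, Bowtie2 and GRCm39. The ascending, arch and proximal descending aorta of perfused mice was frozen. RNA was column-extracted, by the paper's account from lesioned segments of it. How segments were taken in mice without lesions is not stated there, so the part sampled may differ between groups. Of all values 4.99% were not whole, none of them in the members, and values were rounded, since the planned test was written for counts. Groups and replicate numbers came from the labels.

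Tests used edgeR 4.0.16 (R 4.3.3): quasi-likelihood with robust estimation after filterByExpr (14431 genes kept) and TMM (factors 0.874 to 1.08), 1 fit of 48 libraries with a mean per group, 12 comparisons. Medians over the lists and p adjustment cover all tested genes. Scripts were tested on simulated data. No libraries were identical (correlations 0.834 to 0.993). Correlations used numpy 2.4.6 and scipy 1.17.1. Positions and lengths are from GENCODE M21 (GRCm38, not the build of the counts, and so used for description only) and promoter windows from RefSeq, matched by symbol, with 7 of 10 members in the promoter table. With no molecular identifiers, low counts carry at least counting error.

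The members and lists were chosen with earlier results of these data known. Genes outside the members were named where they were called in AAD of both sexes (up to 6 a list, at least 10 counts on average), where they mark a list and were near 0, or as the 3 most like a member, 1 of which is not reported here. The lists were regulators, cartilage matrix, cartilage collagens, bone matrix, inhibitors, and markers of chondrocytes, smooth muscle, fibroblasts, macrophages, osteoclasts, heart muscle, skeletal muscle, airway, thymus, brown fat and endothelium. Alternatives tried were adjusted p alone, no robust estimation, no filter on low counts, DESeq2 1.42.0 or edgeR with size factors of that tool, a replicate block, a fit of the compared groups alone, other scalings of the correlations, and leaving out libraries. Libraries other than MaNonAD ones were left out after seeing the data.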

Additional observations from a re-analysis of the deposited data

Results flagged for a closer look

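In groups of 4 to 10 libraries, 6 of 60 combinations of member and group held a library whose gap to its neighbour, as a share of the group's range of log2(CPM + 1), passed Dixon's 95% critical value. Chance flags about 5% of groups. FeNonAD8 accounted for 3 of the 6, as the highest of FeNonAD for Comp (gap share 0.837, 239.5 CPM against 62.1 in the next library), for Mgp (0.739, 4320 against 2631) and for Chad (0.541, 9.17 against 4.09). FeAAD6 was the highest of FeAAD for Ibsp (0.736, 6.00 CPM against 0.672). MaCon5 was the highest of MaCon for Mgp (0.491, 3381 CPM against 2123). FeCon2 was the lowest of FeCon for Alpl (0.544, 14.8 CPM against 26.4). No sex difference in a response passed for a member.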

How the results depend on the processing

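Of member counts and counts over all genes, 239 values under alternatives stayed within 1.5 times the main count and 42 did not. By adjusted p alone, genes called were 2096 in FeNonAD and 5050 in MaAAD and 6410 in FeAAD against Con, 2625 in FeAAD against FeNonAD, 2060 between the controls and 194 for the sex difference in the AAD response, and members called were 5 in FeAAD against FeNonAD and 1 between the controls. For MaAAD against MaNonAD, with 51 genes called, DESeq2 called 518, its size factors 168, edgeR without robust estimation 99, and the fits without a filter or of those groups alone 0. In fits of the compared groups alone, 141 genes were called in MaNonAD against MaCon, 5 in MaAAD against FeAAD and 1 member in FeAAD against FeNonAD. DESeq2 called 93, 129 and 1 genes for the sex differences in the NonAD response, the AAD response and the step between them. Over the AAD libraries alone 2 pairs of members passed, against 6, and the other 4 kept their sign with r of 0.56, -0.653, 0.443 and 0.525.

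Leaving out 1 library at a time gave 15 (without MaNonAD1) to 79 genes, against 69, and 1 to 2 members in MaNonAD against MaCon, 1 to 2 members in FeNonAD against FeCon, 4 to 6 in FeAAD against FeCon, 0 to 712 (without MaAAD1) genes and 0 to 1 members in MaAAD against MaNonAD, 1 to 3 members in FeAAD against FeNonAD, and 12 to 37, 49 to 116 and 0 to 1 genes for the 3 sex differences, against 43, 75 and 0. The libraries left out were those of MaNonAD and, chosen after seeing the data, MaAAD1, MaAAD7, FeCon10, FeNonAD8, FeAAD5, FeAAD6 and FeAAD9. No MaCon library was among them, so the ranges do not cover every library. Of 550 fold changes of members with 1 library left out, 23 changed sign, and 1 of these was called on either side, Ibsp in FeAAD, at -1.10 without FeAAD6, with values from -1.10 to 0.67 over the libraries left out against 0.51 with all. The cause of these changes was not tested. With the replicate number as a block, 0 genes were called in MaAAD against MaNonAD and 5 in MaAAD against FeAAD, and no count of members changed. Same-numbered libraries are different mice and their deviations did not correlate above 0.1 in every pair of any comparison (mean r at most 0.16), so the numbers were not taken as a pairing. Precision is limited by 4 MaNonAD mice and, for Ibsp, by counts of at most 16 outside FeAAD6.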
